A study of Mus musculus with 21 samples.

Results

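The genes described here encode 46 enzymes of amino acid breakdown and of the urea cycle. They were chosen by name from the genes of the array files, and the brightest probe that passed the signal filter stood for each gene. All 46 were among the 19718 genes tested. Liver RNA was measured in 10 adult male C57BL/6J mice that ate a high-fat diet containing 0.33% (w/w) quercetin (HF-Q), a plant flavonoid, and in 11 adult male C57BL/6J mice that ate the same kind of diet without quercetin (HF). In both groups the diet lasted 12 weeks, followed 3 weeks of adaptation to normal-fat food, and ended with a fast of 2 to 4 hours. Each liver was hybridised to its own 2-colour Agilent array, with that liver in Cy5 and a pool of all samples in Cy3, so each value is the log2 ratio of a liver to the pool. The comparison asks how quercetin added to a high-fat diet alters gene expression in the liver. No lean group was analysed. The pool sat in the other dye on every array, so the zero of a gene is not the average liver, and values are read between livers.

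The liver is the main organ in which the carbon skeletons of amino acids are oxidised or turned into glucose. Transaminases and dehydratases remove the amino group, glutamate dehydrogenase frees it as ammonia, and hepatocytes around the portal vein bind it into urea. Many of these enzymes are known to be induced by glucagon and glucocorticoids in fasting. The sulfur amino acids follow a branch of their own, in which methionine gives the methyl donor S-adenosylmethionine and then homocysteine, and cysteine is oxidised to taurine, which hepatocytes join to bile acids.

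The arrays lay on 3 slides, and each slide held both diets, with 4 HF-Q and 3 HF livers on slide 1, 2 and 4 on slide 2, and 4 and 4 on slide 3. Between 45.5% and 52.5% of the spots of an array were well above background in Cy5. All 7 hepatocyte markers listed were tested, and none of them differed between diets at an unadjusted p under 0.05. An average over all 7 was not available for HF-Q replicates 3 and 10 and HF replicates 5 and 11, all on slide 1. In the other livers it ran from 0.14 to 0.50 in HF-Q and from 0.16 to 0.55 in HF. A list of pancreatic acinar genes, of which 5 were measured, averaged between -0.91 and -0.15 in the HF-Q livers. In HF livers this average was 1.86 in replicate 5, 2.53 in replicate 11, and between -1.05 and -0.38 in the other 9. For Cyp2b10, the gene with the lowest log2 fold change of all those tested, 1 liver of each diet stood on the other side. HF-Q replicate 10 had a log2 ratio of 0.62, against -1.81 to -0.91 in the other 9 HF-Q livers, and HF replicate 2 had -1.96, against -0.096 to 1.87 in the other 10 HF livers. The labels were kept. Without both livers the same number of amino acid genes, 9, had an unadjusted p under 0.05, with 8 of them in common, while the share of all genes with such a p was 9.48% in place of 5.93%. The number of all genes past an adjusted p of 0.05 was 18 in place of 0.

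Of the amino acid genes, 45 were well above background on all 21 arrays, and Tdh was so on 12. None was saturated on any array. A value was missing for 10 genes on at least 1 array because the spot was marked uneven or outlying, and n is given where this matters. In whole liver tissue, fewer cells of a type cannot be told apart from less RNA per cell.

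The probes of the 3 genes with the lowest p are shown because the values below rest on these 60-base stretches alone. Positions follow the array annotation, mouse build NCBI37. The Bckdhb probe lies at chr9:84017787-84017846 on the plus strand, the Gcat probe at chr15:78867788-78867847 on the plus strand, and the Csad probe at chr15:102007569-102007628 on the minus strand. Matches of these probes to other transcripts were not tested.
Bckdhb probe: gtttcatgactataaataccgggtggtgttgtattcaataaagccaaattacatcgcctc
Gcat probe: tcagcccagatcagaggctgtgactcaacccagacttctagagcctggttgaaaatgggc
Csad probe: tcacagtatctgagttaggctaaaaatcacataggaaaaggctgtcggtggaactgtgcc

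No amino acid gene passed the adjusted threshold of 0.05, and 0 of all 19718 genes did (limma's moderated test with Benjamini-Hochberg adjustment). The lowest adjusted p was 0.611 among the amino acid genes and 0.382 among all genes. Before adjustment, 9 of 46 (19.6%) had a p under 0.05, against 5.93% of all genes tested. Of these, 3 were higher in HF-Q livers (3.02% of all genes were called in this direction) and 6 were lower (2.91% of all genes). The 3 were Csad, Gcat and Sdsl, and the 6 were Bckdhb, Gstz1, Gpt, Uroc1, Ftcd and Aldh4a1. The log2 fold change was negative for 33 of 46 genes (71.7%), against 53.0% of all genes, and its median was -0.042, against -0.0043 over all genes. The split moved with the scaling, both among the 46 genes and among all genes. With each array centred on its median in place of loess, 22 of 46 were lower, against 34.3% of all genes, and the median of the 46 was 0.0034, against 0.024 over all genes. The livers of the diets overlapped for every one of the 46, and 0.00507% of all genes had diets that did not overlap.

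**Figure D1:**
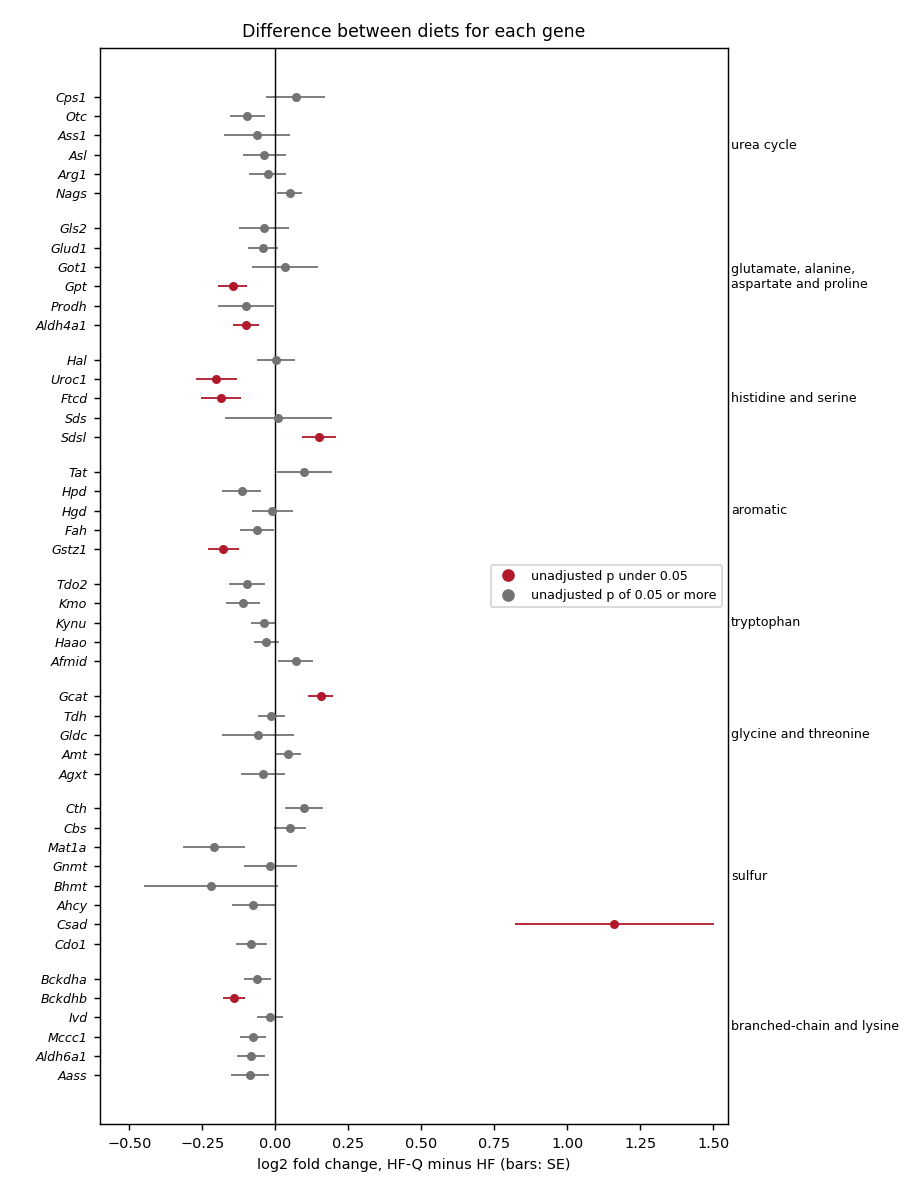
Log2 fold change of HF-Q over HF livers for each of the 46 genes, ordered by amino acid group down the page, with bars of 1 standard error. Red points are the 9 genes with an unadjusted p under 0.05. Csad stands far to the right at 1.16, and the other genes lie between -0.22 and 0.16.

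Csad had the largest positive log2 fold change of all 19718 genes. It encodes cysteine sulfinic acid decarboxylase, which makes hypotaurine, the precursor of taurine. Its log2 ratio to the pool in the HF-Q livers was 0.83, -0.24, -0.76, 0.054, 1.13, -0.47, 1.94, -0.52, 0.99 and -1.60 in replicates 1 to 10. In the HF livers it was -0.90, -0.84, -1.93, -1.79, -0.84, -0.69, -0.020, -1.58, -0.62, -0.43 and -1.63 in replicates 1 to 11. Thus 5 of the 10 HF-Q livers were above the highest HF liver, and the other 5 lay within the HF range. Csad averaged 0.14 ± 1.07 in HF-Q livers and -1.03 ± 0.62 in HF livers (SD, n = 10 and 11), so the spread between mice was wide under both diets. The log2 fold change was 1.16 ± 0.34 (SE), or 2.24 times higher in HF-Q, with a 95% interval of 0.46 to 1.87. The lowest log2 fold change of all genes was that of Cyp2b10, at -1.34. Csad did not pass the adjustment over all genes (unadjusted p = 0.00236, adjusted p = 0.717 by limma with Benjamini-Hochberg).

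The direction of Csad was the same on each slide, at 1.01 on slide 1, 1.64 on slide 2 and 1.37 on slide 3. With the slide as a block the log2 fold change was 1.32 (adjusted p = 0.362 in limma). On slide 2 alone, which held 2 HF-Q and 4 HF livers, the adjusted p of Csad was 0.0496 in limma. On slide 1 alone its unadjusted p was not under 0.05. On slide 3 alone its unadjusted p was under 0.05, but the lowest adjusted p of any amino acid gene there was 0.933 in limma. Without HF-Q replicate 7, the liver with the highest value, the log2 fold change was 0.96 (unadjusted p = 0.00501 in limma). With median centring it was 1.24 (unadjusted p = 0.00171 in limma). Leaving out each liver in turn gave 0.96 to 1.35.

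**Figure D2:**
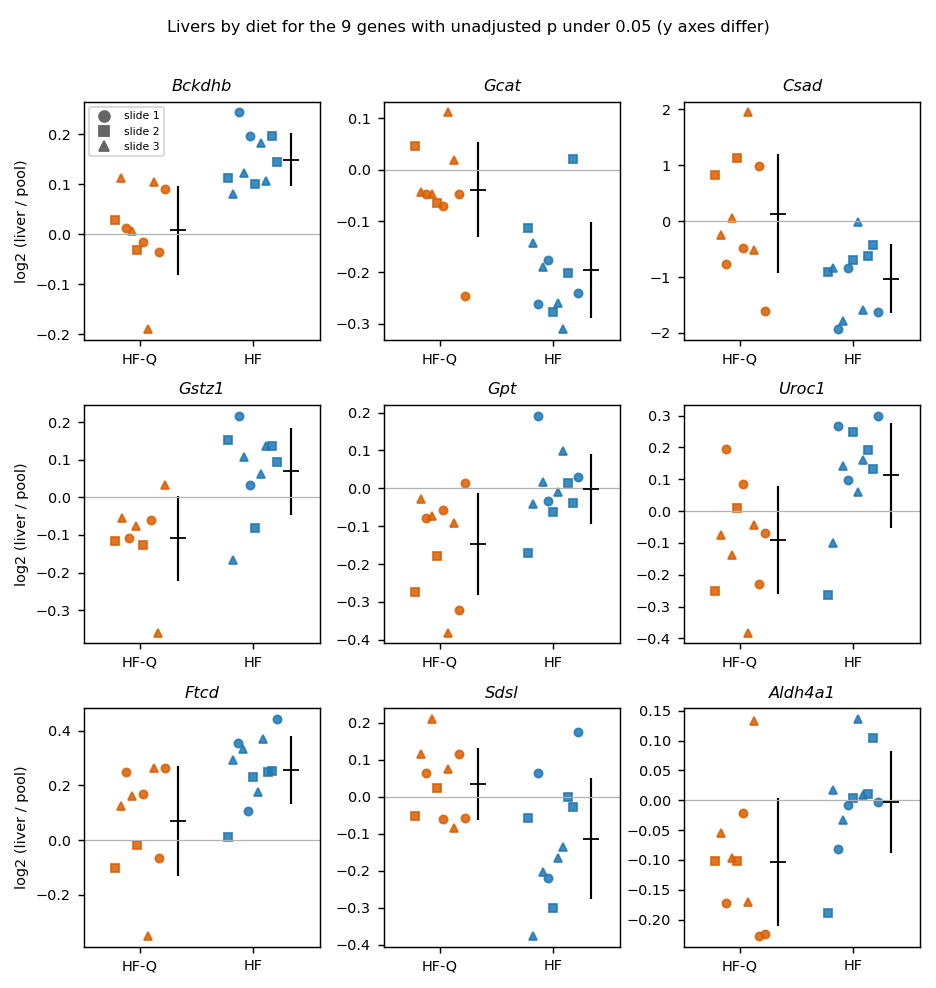
Log2 ratio to the pool in each liver for the 9 genes with an unadjusted p under 0.05, with HF-Q on the left and HF on the right of each panel and symbols for the 3 slides. Horizontal marks are means and vertical bars are SDs, and the y axes differ between panels. Csad spans -1.93 to 1.94, a range several times that of the other 8 genes, and the diets overlap in every panel.

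The other genes of sulfur amino acid metabolism had smaller differences, and none had an unadjusted p under 0.05. Of these 7, 2 were higher and 5 lower in HF-Q, against 53.0% of all genes lower, with a median log2 fold change of -0.076. Mat1a, the liver enzyme that makes S-adenosylmethionine, ranged from -0.70 to 0.21 with a median of -0.016 in HF-Q livers, and from -0.33 to 0.57 with a median of 0.12 in HF livers. In 8 of 10 HF-Q livers it was below the HF median, but the ranges overlapped widely. Its log2 fold change was -0.21 ± 0.11 (SE, unadjusted p = 0.0596), and -0.25 with the slide as a block (unadjusted p = 0.0212). Without HF-Q replicate 7, which held the lowest Mat1a value, it was -0.14.

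Bhmt, which remethylates homocysteine with betaine, varied most between livers after Csad. Its values ran from -1.41 to 0.65 with a median of 0.22 in HF-Q livers, and from -1.03 to 1.08 with a median of 0.28 in HF livers. A single liver of each diet, HF-Q replicate 7 and HF replicate 11, lay far below the others. The log2 fold change was -0.22 ± 0.23 (SE), within the spread, and -0.061 without HF-Q replicate 7. Cth and Cbs, which convert homocysteine to cysteine, had log2 fold changes of 0.098 ± 0.065 and 0.050 ± 0.054 (SE). Cdo1, which oxidises cysteine to the substrate of the Csad enzyme, had -0.082 ± 0.053 (SE). The log2 fold changes of Csad and Cdo1, which encode consecutive steps, had opposite signs, and the difference between them was not tested. Gnmt, which consumes S-adenosylmethionine, and Ahcy, which cleaves S-adenosylhomocysteine, had -0.017 ± 0.091 and -0.076 ± 0.074 (SE).

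In glycine and threonine breakdown 1 of 5 genes had an unadjusted p under 0.05, against 5.93% of all genes. Gcat, whose enzyme splits the threonine product 2-amino-3-ketobutyrate into glycine and acetyl-CoA, was higher in HF-Q. Its values in HF-Q livers were 0.045, -0.043, -0.047, -0.048, -0.065, -0.070, 0.11, 0.018, -0.046 and -0.25 in replicates 1 to 10. In HF livers they were -0.11, -0.14, -0.26, -0.19, -0.18, -0.28, -0.26, -0.31, -0.20, 0.020 and -0.24 in replicates 1 to 11. All HF-Q livers but replicate 10 were above the HF median, and all HF livers but replicate 10 were at or below -0.11. Gcat averaged -0.039 ± 0.093 in HF-Q and -0.20 ± 0.093 in HF livers (SD). This gave a log2 fold change of 0.16 ± 0.043 (SE, unadjusted p = 0.00131, adjusted p = 0.685 in limma), which is 1.11 times higher in HF-Q. On slides 1, 2 and 3 it was 0.12, 0.13 and 0.24.

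Tdh, the dehydrogenase that precedes Gcat in mouse threonine breakdown, was dim, above background in 4 HF-Q and 8 HF livers, and had a log2 fold change of -0.014 ± 0.046 (SE). Gldc and Amt encode proteins of the glycine cleavage system. Amt had 0.044 ± 0.045 (SE), with values from 0.024 to 0.29 in HF-Q and from -0.086 to 0.20 in HF livers. Gldc varied much more between livers, from -0.74 to 0.21 in HF-Q and from -0.64 to 0.33 in HF livers, and its difference of -0.059 ± 0.12 (SE) was within that spread. Agxt, which removes glyoxylate in peroxisomes, had -0.043 ± 0.075 (SE).

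Promoter sequences are shown for Gcat and Csad because these genes had the largest positive differences. The windows run from 250 bases before to 50 after a RefSeq start on GRCm38.p6, a build other than that of the probes. For Gcat the window is chr15:79030624-79030923 on the plus strand, and for the first of 2 annotated starts of Csad it is chr15:102205003-102205302 on the minus strand. Both strands were searched for an E-box (CACGTG), a CRE hexamer (TGACGT), the CCAAT motif and a TATA box (TATAAA). The Gcat window held 1 E-box that overlapped 1 CRE hexamer, in capitals below. The first Csad window held 1 CRE hexamer and 1 CCAAT motif, also in capitals, and the second, at chr15:102188994-102189293 on the minus strand, held none of the 4. Of 32851 mouse promoter windows of this length, 7.15% held the E-box, 7.51% the CRE hexamer, 37.4% the CCAAT motif and 13.6% the TATA box. These matches describe the letters only.
Gcat promoter: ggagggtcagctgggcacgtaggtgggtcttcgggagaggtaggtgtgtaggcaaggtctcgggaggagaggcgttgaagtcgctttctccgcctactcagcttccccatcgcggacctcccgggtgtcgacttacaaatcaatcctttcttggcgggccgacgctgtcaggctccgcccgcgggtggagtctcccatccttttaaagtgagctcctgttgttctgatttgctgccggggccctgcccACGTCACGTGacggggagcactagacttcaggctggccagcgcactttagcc
Csad promoter: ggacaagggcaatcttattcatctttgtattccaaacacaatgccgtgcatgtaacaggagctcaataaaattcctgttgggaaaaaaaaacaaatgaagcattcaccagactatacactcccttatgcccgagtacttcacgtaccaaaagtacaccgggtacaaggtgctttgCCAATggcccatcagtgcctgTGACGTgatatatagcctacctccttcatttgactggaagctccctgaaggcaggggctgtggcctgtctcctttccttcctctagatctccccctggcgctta

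In branched-chain and lysine breakdown all 6 genes had a negative log2 fold change, against 53.0% of all genes, with a median of -0.080. A single one of them, Bckdhb, had an unadjusted p under 0.05, against 5.93% of all genes. With median centring 5 of the 6 were negative, against 34.3% of all genes, Ivd being the exception at 0.037. Bckdhb encodes the E1 beta subunit of the branched-chain ketoacid dehydrogenase, the committed step of leucine, isoleucine and valine oxidation. The Bckdhb value in HF-Q livers was 0.028, 0.11, 0.012, 0.0067, -0.032, -0.016, -0.19, 0.10, -0.036 and 0.091 in replicates 1 to 10. In HF livers it was 0.11, 0.082, 0.24, 0.12, 0.20, 0.10, 0.18, 0.11, 0.20 and 0.15 in replicates 1 to 10, with no value for replicate 11. In all 10 HF-Q livers it was below the HF median, and in 7 it was below the lowest HF liver. Bckdhb averaged 0.0081 ± 0.088 in HF-Q and 0.15 ± 0.053 in HF livers (SD, n = 10 and 10). That is a log2 fold change of -0.14 ± 0.037 (SE), which is 1.10 times lower in HF-Q (unadjusted p = 0.00101, adjusted p = 0.611 in limma). It was -0.21, -0.14 and -0.12 on slides 1, 2 and 3, and -0.079 with median centring (unadjusted p = 0.494).

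Bckdha, the E1 alpha partner of Bckdhb, had a log2 fold change of -0.061 ± 0.047 (SE), with -0.15 to 0.082 in HF-Q and -0.19 to 0.19 in HF livers. Mccc1, a subunit of the leucine enzyme methylcrotonyl-CoA carboxylase, had -0.077 ± 0.045 (SE). It was below the HF median in 9 of 10 HF-Q livers. Aldh6a1, of valine breakdown, Ivd, of leucine breakdown, and Aass, which starts lysine breakdown, had -0.083, -0.019 and -0.087. Per liver, the mean of the 6 genes was -0.22 to 0.12 with a median of -0.017 in HF-Q and -0.054 to 0.13 with a median of 0.043 in HF livers, so the diets overlapped here too.

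In histidine and serine breakdown 3 of 5 genes had an unadjusted p under 0.05, in both directions, against 5.93% of all genes. Uroc1 and Ftcd encode enzymes downstream in histidine breakdown, urocanase and formimidoyltransferase cyclodeaminase, and both were lower in HF-Q. Uroc1 ran from -0.38 to 0.20 with a median of -0.073 in HF-Q livers, and from -0.26 to 0.30 with a median of 0.14 in HF livers. Of the HF-Q livers, 9 of 10 were below the HF median for Uroc1. Its log2 fold change was -0.20 ± 0.070 (SE, unadjusted p = 0.00814, adjusted p = 0.752 in limma), and -0.23, -0.20 and -0.22 on slides 1, 2 and 3.

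Ftcd ran from -0.35 to 0.26 with a median of 0.14 in HF-Q livers, and from 0.012 to 0.44 with a median of 0.25 in HF livers. For Ftcd, 4 HF-Q livers were below every HF liver. Ftcd had a log2 fold change of -0.19 ± 0.069 (SE, unadjusted p = 0.0121). Hal, which opens the same pathway, averaged 0.083 ± 0.17 in HF-Q and 0.081 ± 0.14 in HF livers (SD). Its second kept probe had a log2 difference of -0.089, against 0.0016 for the brighter probe, and Hal was the single gene of the 11 with several kept probes whose probes disagreed in sign.

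Sds and Sdsl, serine dehydratase and its paralogue, differed in the size and spread of their values. Sdsl ran from -0.086 to 0.21 with a median of 0.045 in HF-Q livers, and from -0.38 to 0.18 with a median of -0.14 in HF livers, and all 10 HF-Q livers were above the HF median. For Sdsl the log2 fold change was 0.15 ± 0.058 (SE, unadjusted p = 0.0176), and 0.0086, 0.083 and 0.30 on slides 1, 2 and 3. Sds, a gluconeogenic enzyme that is strongly induced in fasting, had 0.010 ± 0.18 (SE), with values from -0.56 to 0.71 in HF-Q and from -0.66 to 0.85 in HF livers. Its sign was not stable, at -0.080 with the slide as a block.

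Of the genes around glutamate, alanine, aspartate and proline, 2 of 6 had an unadjusted p under 0.05, against 5.93% of all genes. Both were lower in HF-Q, and 5 of 6 were negative, against 53.0% of all genes. Gpt, the alanine aminotransferase of the cytosol, ran from -0.38 to 0.015 with a median of -0.086 in HF-Q livers, and from -0.17 to 0.19 with a median of -0.011 in HF livers. It was below the HF median in 9 of 10 HF-Q livers and below every HF liver in 4. The log2 fold change of Gpt was -0.15 ± 0.050 (SE, unadjusted p = 0.00792, adjusted p = 0.75 in limma), with -0.17, -0.16 and -0.16 on slides 1, 2 and 3.

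Aldh4a1, which completes the conversion of proline to glutamate, ran from -0.23 to 0.13 with a median of -0.10 in HF-Q livers, and from -0.19 to 0.14 with a median of 0.0039 in HF livers. Its log2 fold change was -0.10 ± 0.044 (SE, unadjusted p = 0.0316), and it was above 0.05 in 6 of the 21 fits that left out a single liver (HF-Q replicates 3, 7, 9 and 10 and HF replicates 7 and 10), at 0.0535 without HF-Q replicate 7. Prodh, the first enzyme of the same route, had -0.10 ± 0.096 (SE). Glud1 and Gls2, which release ammonia from glutamate and glutamine, had -0.041 ± 0.051 and -0.040 ± 0.085 (SE). Got1, the cytosolic aspartate aminotransferase, ranged from -0.33 to 0.33 in HF-Q and from -0.58 to 0.52 in HF livers, and its 0.034 ± 0.11 (SE) was within that range.

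In tyrosine and phenylalanine breakdown 4 of 5 genes were negative, against 53.0% of all genes. A single one, Gstz1, had an unadjusted p under 0.05, against 5.93% of all genes. Gstz1, the maleylacetoacetate isomerase, was -0.12, -0.054, -0.11, -0.076, -0.13, -0.061, -0.36 and 0.032 in HF-Q replicates 1 to 8. In HF replicates 1 to 10 it was 0.15, -0.17, 0.22, 0.11, 0.032, -0.082, 0.061, 0.14, 0.14 and 0.094, and 3 livers had no usable spot. All 8 HF-Q livers were below the HF median of Gstz1, and 1 was below the lowest HF liver. Gstz1 had a log2 fold change of -0.18 ± 0.055 (SE, unadjusted p = 0.00395, adjusted p = 0.740 in limma).

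Hpd, which acts upstream of Gstz1, had -0.12 ± 0.068 (SE, unadjusted p = 0.10). With the slide as a block Hpd had -0.14 (unadjusted p = 0.0302). Tat, the aminotransferase that starts tyrosine breakdown, had 0.10 ± 0.094 (SE), with values from -0.17 to 0.58 in HF-Q and from -0.39 to 0.34 in HF livers. Hgd had -0.010 ± 0.071 and Fah had -0.063 ± 0.057 (SE).

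None of the 5 tryptophan genes had an unadjusted p under 0.05. Tdo2, the dioxygenase that opens the kynurenine pathway in hepatocytes, ran from -0.43 to 0.074 with a median of -0.20 in HF-Q livers and from -0.19 to 0.15 with a median of -0.082 in HF livers. In 5 HF-Q livers it was below every HF liver, but in 4 it was above the HF median. Its log2 fold change was -0.097 ± 0.061 (SE). Kmo, kynurenine monooxygenase, had -0.11 ± 0.057 (SE, unadjusted p = 0.0652), and -0.11 with the slide as a block (unadjusted p = 0.0484). Afmid, the kynurenine formamidase, had 0.070 ± 0.061 (SE), and Kynu and Haao had -0.039 and -0.031.

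The urea cycle showed no difference at an unadjusted p under 0.05 in any of its 6 genes. Cps1, which forms carbamoyl phosphate from ammonia in mitochondria, ran from -0.56 to 0.44 with a median of 0.14 in HF-Q livers and from -0.24 to 0.46 with a median of -0.0090 in HF livers. Its log2 fold change was 0.069 ± 0.10 (SE), with a 95% interval of -0.14 to 0.28. Otc, which makes citrulline, had -0.095 ± 0.058 (95% interval -0.22 to 0.025), and was below the HF median in 8 of 10 HF-Q livers. Ass1, which joins citrulline to aspartate, was measured in 7 HF-Q and 9 HF livers and had -0.061 ± 0.11 (95% interval -0.30 to 0.18).

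Asl, which cleaves argininosuccinate to arginine, and Arg1, which releases urea, had -0.038 ± 0.074 and -0.026 ± 0.064, with 95% intervals of -0.19 to 0.12 and -0.16 to 0.11. Nags, which makes the activator of the Cps1 enzyme, had 0.049 ± 0.044 (95% interval -0.041 to 0.14). The intervals of all 6 include 0, and the widest bound, for Ass1, corresponds to a change of 0.30 on the log2 scale. Per liver, the mean of the 6 genes was -0.21 to 0.25 in HF-Q and -0.15 to 0.28 in HF livers. With median centring Asl and Arg1 had positive values of 0.036 and 0.045.

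**Figure D3:**
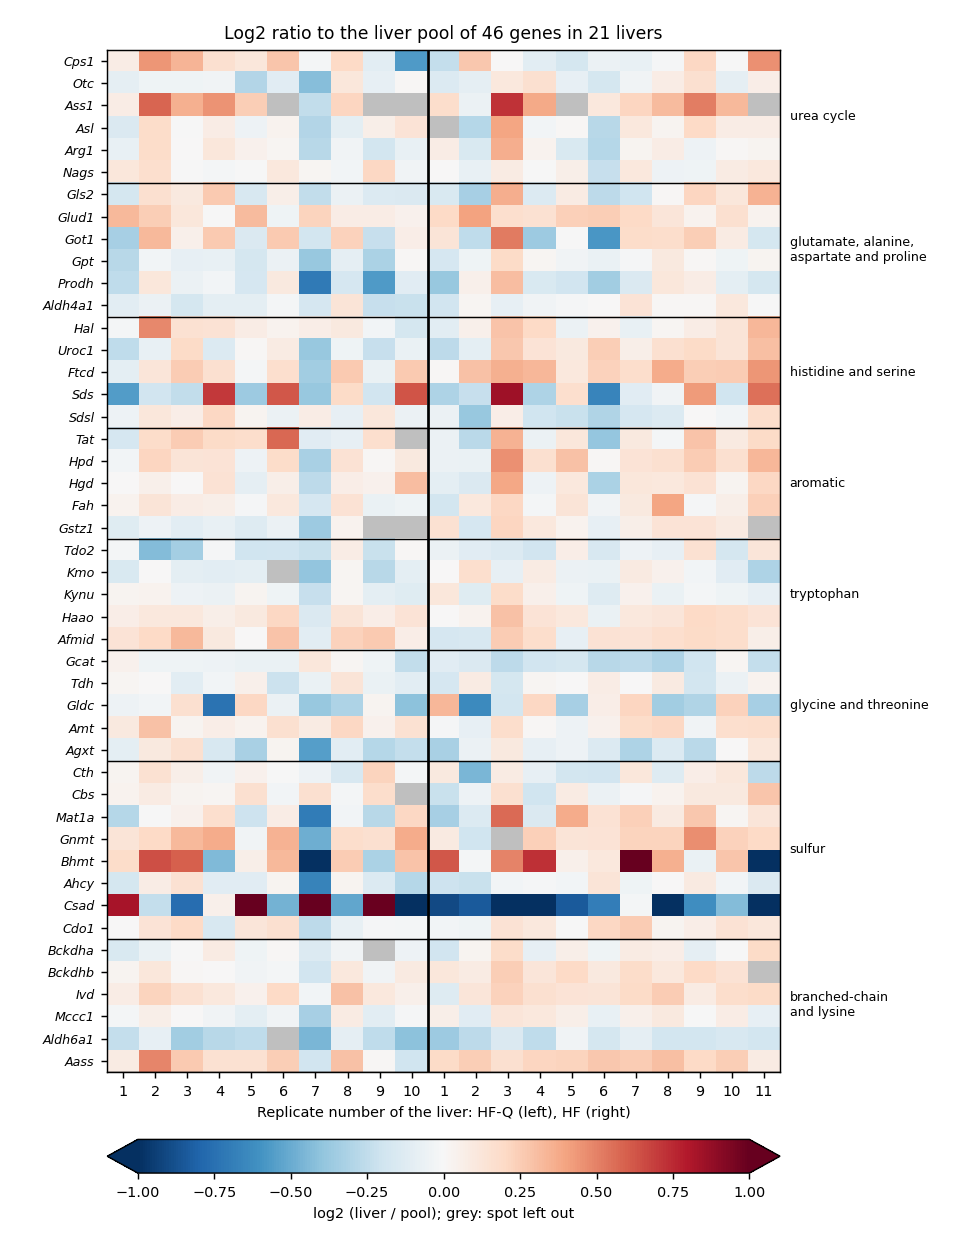
Log2 ratio to the pool of the 46 genes, in rows by amino acid group, in the 10 HF-Q livers on the left and the 11 HF livers on the right of the vertical line. Red is above and blue below the pool, grey marks spots left out, and colours end at -1 and 1. The HF-Q replicate 7 column is blue in most rows, with 38 of 46 genes below the pool, and the Csad row is the darkest.

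A single HF-Q liver differed from the rest across most of these genes. HF-Q replicate 7 had the lowest value of all HF-Q livers for 27 of 46 genes. It was below the pool for 38, against 13 to 26 genes in the other HF-Q livers. Its mean over the 46 genes was -0.21, against -0.057 to 0.11 in the other 9 HF-Q livers, and its Csad value was the highest of all livers. The median over all genes in HF-Q replicate 7 was 0.017. The share of its spots well above background, 45.5%, was the lowest of the 21 arrays. Its average of hepatocyte markers, 0.14, was the lowest of the livers for which that average was available. The means of HF livers ran from -0.095 in replicate 2 to 0.16 in replicate 3. Among HF livers, replicate 1 was lowest for 15 genes, replicate 2 for 14, and replicate 3 highest for 18. How often a liver was lowest, highest or below the pool over all genes is not given. These counts are thus not set against the whole array. Without HF-Q replicate 7, 28 of 46 genes had a negative log2 fold change, against 53.1% of all genes, and the median was -0.016. Then 8 genes had an unadjusted p under 0.05, against 4.52% of all genes, Aldh4a1 being the one lost. The part of array quality in these values was not tested.

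The spread between livers differed widely among the genes. In HF-Q livers the SD was 1.07 for Csad, 0.61 for Bhmt and 0.47 for Sds, and in HF livers it was 0.62, 0.55 and 0.44. The lowest SD in HF livers was that of Bckdhb, 0.053. The median residual SD of the 46 was 0.15, against 0.13 over all genes. A difference as small as that of Gcat or Bckdhb therefore rests on a small spread, and one such as that of Bhmt could not be told from 0.

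**Figure D4:**
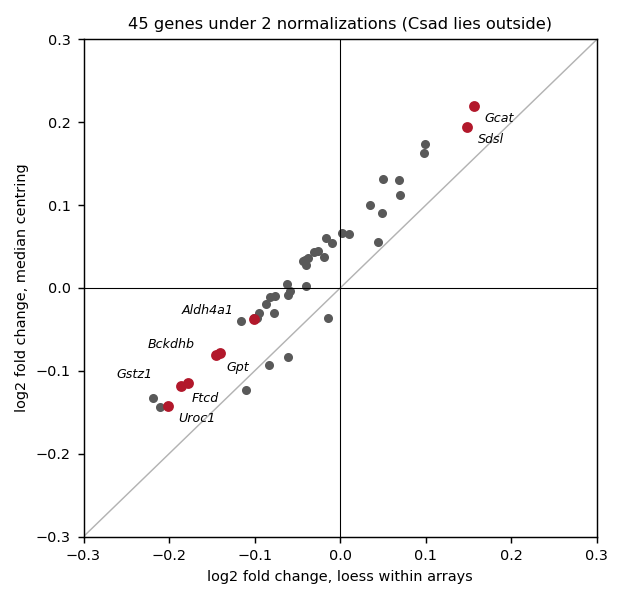
Log2 fold change of HF-Q over HF with loess within arrays (x axis) and with each array centred on its median (y axis), for 45 genes. Csad lies outside the axes, at 1.16 and 1.24. Red points are 8 of the genes with an unadjusted p under 0.05 under loess. Most points lie above the diagonal, and 11 genes turn sign.

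Median centring shifted most of the 46 genes upward. It left a single one, Csad, at an unadjusted p under 0.05, against 1.21% of all genes. The 6 genes that were lower under loess remained negative, at -0.14 for Uroc1, -0.12 for Ftcd, -0.11 for Gstz1, -0.081 for Gpt, -0.079 for Bckdhb and -0.038 for Aldh4a1. Gcat and Sdsl were higher still, at 0.22 and 0.19, with unadjusted p of 0.0682 and 0.0880. In the values the authors deposited, 36 of the 46 genes were present and 4 of them had an unadjusted p under 0.05, against 5.40% of all genes in that table. Those 4 were Csad, Gcat, Sdsl and Uroc1. With the deposited values 22 of 36 genes were lower, against 48.0% of all genes measured there. With the slide as a block 12 genes had an unadjusted p under 0.05, against 6.94% of all genes, the added ones being Hpd, Kmo and Mat1a. The sign was the same on all 3 slides for 24 of 46. The share of all genes with the same sign on all 3 slides is not given, so nothing is read from this count.

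Pairs of enzymes were compared across livers after subtraction of each diet's mean, with 6 pairs chosen for neighbouring or jointly regulated steps. Sds and Tat, both known targets of glucagon and glucocorticoids, varied together (Pearson r = 0.74, Spearman rho = 0.78, permutation adjusted p = 0.00124 and 0.00090, n = 20 livers). Without the 2 livers farthest from the median of the first gene named in each pair, here Sds, r was 0.76. Within the diets r was 0.58 in HF-Q and 0.88 in HF livers. On slides 1, 2 and 3 r was 0.96, 0.91 and 0.42. Gls2, a periportal glutaminase, also varied with Sds (r = 0.71, rho = 0.70, permutation adjusted p = 0.00124 and 0.00183, n = 21). This was 0.57 without the 2 farthest livers, 0.48 in HF-Q and 0.88 in HF livers, and 0.23, 0.89 and 0.64 on slides 1, 2 and 3.

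Mat1a and Gnmt, which make and consume S-adenosylmethionine, varied together as well (r = 0.77, rho = 0.60, permutation adjusted p = 0.00124 and 0.0136, n = 20). The relation was 0.93 in HF-Q and 0.46 in HF livers, 0.62 without the 2 farthest livers, and 0.72, 0.64 and 0.89 on slides 1, 2 and 3. HF-Q replicate 7 was the lowest HF-Q liver for both genes. For the other 3 pairs the permutation p did not pass. Cps1 and Arg1 had r = 0.24 and rho = 0.26 (adjusted p = 0.339 and 0.385 by permutation), Tat and Tdo2 had 0.024 and 0.14 (0.922 and 0.563), and Bckdha and Bckdhb had 0.33 and 0.20 (0.204 and 0.492). Both genes of a pair share the loess fit of each array and the pool. The difference between the diets in these relations was not tested.

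**Figure D5:**
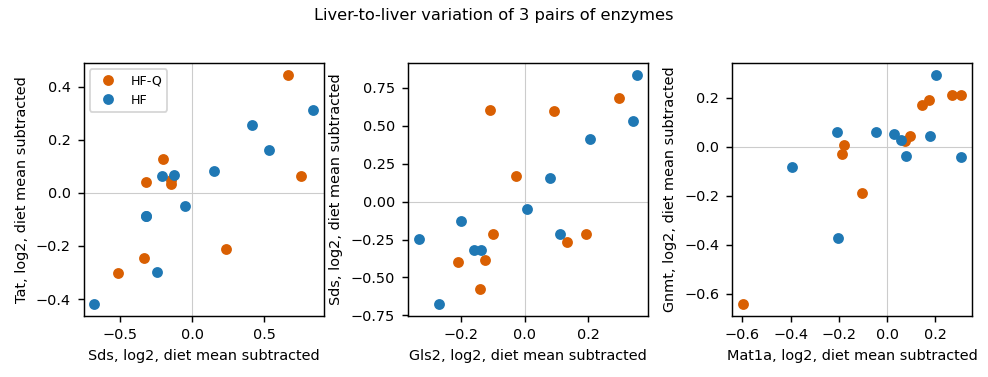
Log2 ratio to the pool after subtraction of each diet's mean for Sds and Tat, Gls2 and Sds, and Mat1a and Gnmt, with 1 point per liver, orange for HF-Q and blue for HF. All 3 pairs vary together, with r = 0.74, 0.71 and 0.77, and the lowest point of the third panel is HF-Q replicate 7.

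Lists of the wider pathway were described in the same way. Of 71 other genes of amino acid breakdown, 66 were tested, and 10 (15.2%) had an unadjusted p under 0.05, 1 higher and 9 lower in HF-Q, against 5.93% of all genes in either direction, 3.02% higher and 2.91% lower. The log2 fold change was negative for 48 of the 66, against 53.0% of all genes, with a median of -0.043. Prodh2, which starts hydroxyproline breakdown, averaged -0.091 ± 0.13 in HF-Q and 0.062 ± 0.061 in HF livers (SD), a log2 fold change of -0.15 ± 0.045 (SE, unadjusted p = 0.00275). Hibadh, of valine breakdown, had -0.12 ± 0.039 (SE, unadjusted p = 0.00625), with -0.095, -0.14 and -0.13 on the 3 slides. Got2, the mitochondrial aspartate aminotransferase, had -0.10 ± 0.037 (SE, unadjusted p = 0.0105), but 0.017 on slide 2. None of the 66 passed an adjusted p of 0.05 in limma.

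Amino acid transporters of the liver and regulators of these enzymes had 0 of 18 genes each at an unadjusted p under 0.05, with medians of 0.0063 and -0.023. Among transporters the lowest p belonged to Slc7a8, which carries neutral amino acids (0.077 ± 0.042), followed by Slc25a44 and Slc1a2 (-0.049 and -0.087). Among regulators it belonged to Creb3l3, a hepatic transcription factor of fasting, with -0.073 ± 0.041 (SE). Crem and Sik1, both known to respond to cyclic AMP, had 0.11 and 0.11.

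Zone markers were compared because urea synthesis is periportal. Of 9 periportal markers outside the 46 genes, 1 had an unadjusted p under 0.05, the apolipoprotein gene Apoa4 (-0.38 ± 0.17, SE, unadjusted p = 0.0367), and Aldh1b1 and Hsd17b13 had -0.19 and -0.092. Of 9 perivenous genes tested, 1 did, Rgn (-0.14 ± 0.064, SE, unadjusted p = 0.0387), and Rhbg, an ammonium transporter, and Oat, which makes glutamate from ornithine, had -0.35 and -0.20. Of all genes tested, 5.93% had an unadjusted p under 0.05. The log2 fold change was negative for 6 of the 9 periportal and 7 of the 9 perivenous genes, against 53.0% of all genes. Nothing is read from counts this small. Their part in the values of the 46 genes was not tested.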

How the data were processed

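The scanner output of 21 arrays, deposited by the authors, gives the mean intensity of each spot and of its background in both channels before any normalization, per the file headers. The scanning software was Agilent Feature Extraction 10.7.3.1, per the submitters' processing notes. The study had 24 mice, and the arrays of 3 were left out by the authors for uneven hybridisation, per the labels. Targets were made from 200 ng of RNA of each liver, per the labels' protocols. No dyes were swapped, so a dye effect on a gene does not cancel, but it is shared by both diets. A deposited table of log2 values from the authors, with a median of 7.92 in every column, correlated with the Cy5 signal at r = 0.973 to 0.989 and with Cy3 at 0.970 to 0.982. It served as an alternative, and its scaling is not given in the sources.

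Background was corrected by normexp (offset 50), which draws ratios of dim genes toward 0, and ratios by loess within arrays in limma 3.58.1 under R 4.3.3. Controls and spots that the software marked as uneven or outlying were left out, spots of a probe were averaged, and a probe was kept if well above background in Cy5 on at least 10 of 21 arrays. This left 26291 probes and 19718 genes, 4866 with several kept probes, of which the brightest was used. The difference of HF-Q and HF was tested with limma (moderated test, two-sided, no block), and p-values were adjusted over all genes by Benjamini-Hochberg. Correlations used 100000 permutations within diets, two-sided, adjusted over the 6 pairs. Array flags are 0 or 1 per the file headers. The number of arrays limits the precision.

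The 46 genes, the further lists and the pairs were chosen with earlier results of these data known. Named genes were the urea cycle enzymes, in every other group the 2 members of lowest p and the one with the largest SD in HF livers, and the 3 of lowest p in each further list. Members outside this rule were named to complete their groups. Sequences come from the array files and from RefSeq (GRCm38.p6). Of 10 pairs of livers with the same replicate number, deviations correlated at r = -0.34 to 0.16, 1 pair was above 0.1, and none was best with its own number. No pairing by number was thus seen in expression, and the labels state none. A pairing that leaves no trace in expression would not be seen in this way. Marker lists of Kupffer, endothelial, stellate, bile duct, kidney and fat cells had no gene at an unadjusted p under 0.05. That of blood had 1 of 5, Hba-a1 (-0.24), against 5.93% of all genes.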

Additional observations from a re-analysis of the deposited data

Results flagged for a closer look

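In each diet, livers were searched for a single value far from the rest of its group, over 50 genes and group means, and 10 were found, all in HF-Q livers. Chance alone marks about 1 in 20 groups, and each of the 50 was searched in both diets. The 50 are not independent, because the means hold genes that were also searched alone. Several of the genes were named for a low p in these same data. For 9 of the 10 the liver was HF-Q replicate 7. Among the 46 genes its values were -0.36 for Gstz1, -0.32 for Hpd, -0.19 for Bckdhb and -0.33 for Mccc1. Outside them it had -0.41 for Prodh2, -0.48 for Rgn and -1.37 for Rhbg. Its mean over all 46 genes was -0.21 and its mean over the 5 tryptophan genes was -0.22. The tenth was Gcat in HF-Q replicate 10, at -0.25, the liver that was also apart for Cyp2b10.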

How the results depend on the processing

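Over 19 alternative settings and 21 single livers left out, Csad, Gcat and Bckdhb kept their direction wherever they were measured. Bckdhb was not among the genes present in the deposited values. The 19 settings include quantile scaling of average intensities between arrays. This scaling leaves the log2 ratios unchanged, so its counts and shares had to be those of the main fit and test nothing. Median centring left 1 of the 46 genes at an unadjusted p under 0.05, 1 higher and 0 lower in HF-Q, against 1.21% of all genes. The deposited values left 4 of 36, 1 of them lower, against 5.40% of all genes. Cy5 alone left 8, without Sdsl, against 4.68% of all genes. Slide 1 alone gave 6, with 0 higher, against 6.88% of all genes. Slide 2 alone gave 2, 1 higher and 1 lower, against 3.61% of all genes. Slide 3 alone gave 5, 2 of them lower, against 4.81% of all genes. The median of the histidine and serine genes was -0.19 on slide 1 and -0.20 on slide 2. All genes past an adjusted p of 0.05 in limma numbered 1 with array weights, 1 on slide 2, 18 without HF replicate 2 and HF-Q replicate 10, and 0 to 4 with a single liver left out.

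Signs turned as follows, and the cause was not tested. Sds had -0.013 with processed signals, -0.0023 with Cy5 alone, -0.074 with array weights, -0.080 with the slide block, -0.32 and -0.27 on slides 1 and 2, and -0.081 without HF replicate 2 and HF-Q replicate 10. Median centring gave Asl 0.036 and Arg1 0.045, and Arg1 had 0.025 in the deposited values and 0.047 on slide 2. Slc25a44 had 0.043 with Cy5 alone and 0.015 as a mean of probes. Got1 had -0.012 with array weights, and -0.075 and -0.21 on slides 1 and 2. Slide 1 turned Cps1 (-0.11), Nags (-0.015), Amt (-0.0046), Gldc (0.21), Sik1 (-0.051) and Rhbg (0.15). Slide 2 turned Afmid (-0.016), Got2 (0.017), Creb3l3 (0.013) and Crem (-0.11), and slide 3 turned Ass1 (0.036), Asl (0.015) and Hsd17b13 (0.0026). With a single liver left out the ranges were -0.054 to 0.010 for Arg1, -0.072 to 0.0027 for Asl, -0.12 to 0.020 for Ass1, -0.11 to 0.0057 for Gldc, -0.023 to 0.086 for Got1 and -0.066 to 0.094 for Sds. The correlation of Cps1 and Arg1 was -0.18 on slide 2, that of Tat and Tdo2 -0.15 on slides 1 and 3 and -0.064 without the 2 farthest livers, and that of Bckdha and Bckdhb -0.056 and -0.14 on slides 1 and 2.

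With replicate numbers as a block, which are not known to pair mice, 9 genes had an unadjusted p under 0.05, against 5.73% of all genes. Of these 9, 8 were in common with the main fit, and the median was -0.047. Added after seeing the data were the settings without HF replicate 2 and HF-Q replicate 10, and with the slide block without HF-Q replicate 7. The latter gave 9 genes, against 5.68% of all genes. Ratios of dim genes such as Tdh are limited by signal over background.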
